A study of Homo sapiens with 8 samples.

Results

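The RNA of 9 genes was followed through 8 RNA-seq libraries of triple-negative breast cancer cells: the ligands HBEGF, AREG, EREG, TGFA, EGF, BTC, EPGN and NRG1 of the EGF receptor family, and ADAM17, the protease that releases several of them from the cell surface. Each gene was found by its symbol in the deposited count table, 1 row per gene, and the 9 are part of 55679 gene identifiers. They were chosen by their known role and selected on their levels and ratios in these same libraries, so their values are given as a description with no p-value. The cells were MDA-MB468 and BT549, established human lines that lack hormone receptors and HER2 amplification, each as parental cells and as CE cells. CE (chronic exposure) cells had been passaged in rising amounts of Acetalax until they grew in 40 μmol/L, were called resistant clones by the submitters, and were kept free of the drug for 2 weeks before use. Parental and CE cells of each line were left untreated (control) or given Acetalax, a diphenolic laxative also named oxyphenisatin acetate, at 1 μmol/L for 6 hours. Each of these 8 conditions was 1 library of poly(A)-selected RNA. A difference between a pair of libraries therefore has no replicate check, and the intervals printed below cover counting error only.

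The ligands are made as membrane-anchored precursors with an EGF-like domain. Metalloproteases of the ADAM family cut them loose, after which they bind receptors of the EGFR family and start the RAS-MAPK cascade. HBEGF, AREG, EREG, TGFA, EGF, BTC and EPGN bind EGFR, and HBEGF, EREG and BTC also bind ERBB4, while NRG1 binds ERBB3 and ERBB4. Several of the ligand genes are early targets of the pathway they start. In RNA-seq data only their transcripts are seen, and release of the protein was not measured.

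The libraries held between 42261122 and 54241728 counts on genes. Levels are given as CPM, the counts of a gene scaled to the same total in every library (counts per 1000000 counts on all genes), and as FPKM, which is CPM per kilobase of exon, wherever genes are compared with each other. The labels were checked against marker genes. All 6 epithelial markers, such as CDH1 and KRT5, were higher in every MDA-MB468 library than in any BT549 library, and all 6 mesenchymal markers, such as VIM and ZEB2, were higher in every BT549 library. ESR1 reached at most 5.15 CPM and PGR at most 0.627 CPM, while ERBB2 lay between 41.2 and 95.2 CPM. Of the blood and endothelial markers, CD3E was at 0 in every library and PTPRC did not exceed 0.756 CPM. Mitochondrial transcripts took from 4 to 10% of the counts, with 10% in the MDA-MB468 parental control and 7.89% after Acetalax, and 5.08% in the BT549 CE control and 4% after Acetalax. Their part in the results below was not tested.

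The 2 lines differed in their ligand RNA. By counted reads, TGFA was the main ligand of MDA-MB468 cells and was all but absent from BT549 cells, where HBEGF and NRG1 made up nearly all ligand RNA. After Acetalax, HBEGF was higher than in the control in all 4 backgrounds, by 1.56-fold in MDA-MB468 CE cells and by 13.6-fold in BT549 CE cells. In MDA-MB468 cells TGFA, AREG, EREG and EPGN were higher as well, whereas BTC was within counting error of the control and EGF was not higher in any background.

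**Figure D1:**
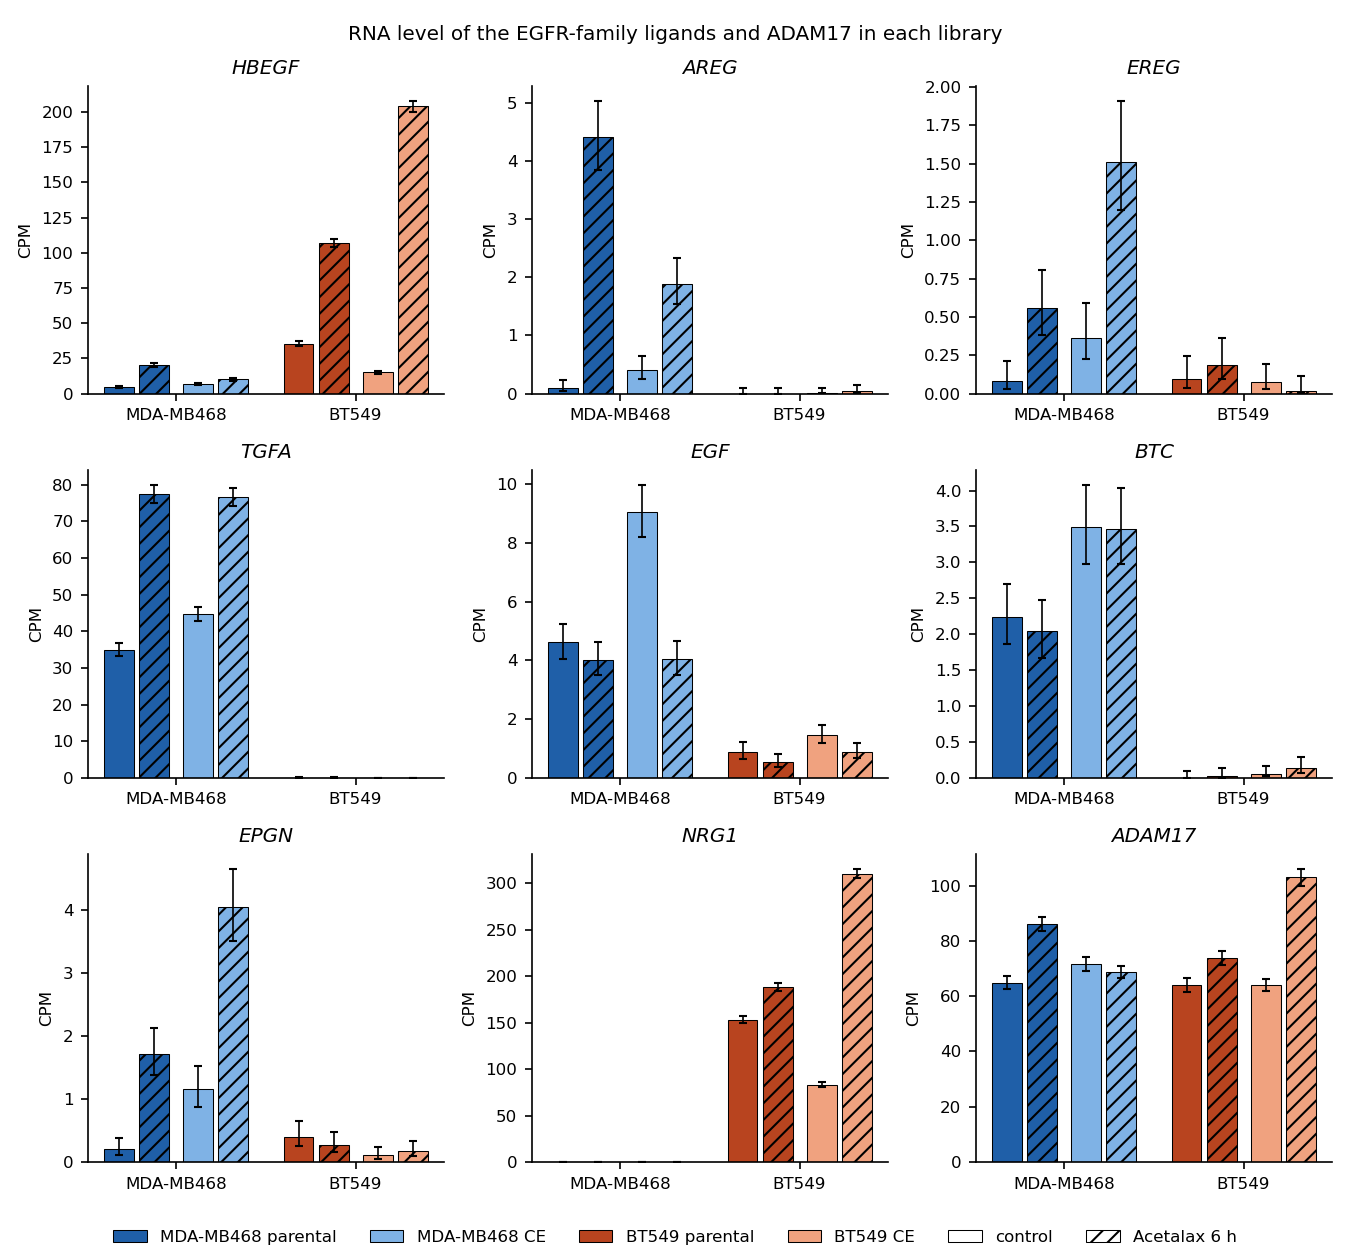
RNA level in CPM (y axis, from 0, a separate scale for each gene) of the 9 genes in the 8 libraries, with MDA-MB468 at left and BT549 at right in each panel; plain bars are controls, hatched bars are cells given Acetalax for 6 hours, and error bars are 95% Wilson intervals for counting error. TGFA was at 35 to 77.5 CPM in MDA-MB468 and NRG1 at 83.2 to 310 CPM in BT549, and each had at most 2 counts in any library of the other line.

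HBEGF, the heparin-binding ligand that also serves as the receptor of diphtheria toxin, lies on chromosome 5 from 139712428 to 139726216 (hg19, minus strand). The 150 bases before its RefSeq start site are shown because its RNA had the largest ratio of the more abundant ligands. They hold none of the 5 motifs searched (below), nor do the 100 bases before them. Coordinates are those of the exact match in hg19, and the sequence is read along the minus strand.
HBEGF chr5:139726189-139726338: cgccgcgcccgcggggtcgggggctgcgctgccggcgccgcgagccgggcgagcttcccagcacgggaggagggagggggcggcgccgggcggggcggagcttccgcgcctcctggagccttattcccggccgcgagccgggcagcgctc

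In MDA-MB468 parental cells HBEGF was at 4.75 CPM in the control and 20.2 CPM after Acetalax, and in CE cells it was at 6.5 CPM and 10.2 CPM. In BT549 parental cells the control had 35.3 CPM and the treated cells 107 CPM. In BT549 CE cells the level was 15.1 CPM in the control and 204 CPM after Acetalax, the lowest and the highest HBEGF level of that line. The treated library was thus above its own control in each background, while the ranges of the lines overlapped, since treated MDA-MB468 parental cells were above the BT549 CE control.

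The log2 ratio of treated to control cells was 2.09 (95% interval for counting error 1.88 to 2.30) in MDA-MB468 parental cells and 0.65 (0.43 to 0.86) in MDA-MB468 CE cells. It was 1.60 (1.51 to 1.68) in BT549 parental cells and 3.76 (3.66 to 3.87) in BT549 CE cells. CE cells thus differed from parental cells in opposite directions in the lines. The ratio was lower in MDA-MB468 CE than in parental cells, with a difference of -1.44 (-1.74 to -1.15), and higher in BT549 CE than in parental cells, with a difference of 2.16 (2.03 to 2.30). Of the 11135 genes that averaged 5 CPM or more over the libraries, 1.81% had a ratio at least 1 lower in MDA-MB468 CE than in parental cells and 2.37% had a ratio at least 1 higher in BT549 CE than in parental cells. The control library enters each such difference: in BT549 the CE control was lower than the parental control, and the treated CE cells were 1.91-fold above the treated parental cells.

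Ordered from the highest ratio among these 11135 genes, HBEGF stood at place 103 in MDA-MB468 parental cells, 594 in MDA-MB468 CE cells, 67 in BT549 parental cells and 7 in BT549 CE cells. Being higher after Acetalax in all 4 pairs was true of 12.8% of the genes. Over the 4 pairs, edgeR estimated a log2 fold change of 2.11 ± 0.46 (SE) for HBEGF, against a median of -0.04 over 19693 genes tested. The genes whose 4 ratios lay nearest to those of HBEGF were MAFF, a small MAF transcription factor, at a Euclidean distance of 0.82, CREB5, a transcription factor of the CREB family, at 0.85, and ABL2, a tyrosine kinase, at 1.25. MAFF had log2 ratios of 2.62 and 1.10 in MDA-MB468 parental and CE cells and of 2.01 and 3.86 in BT549 parental and CE cells.

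**Figure D2:**
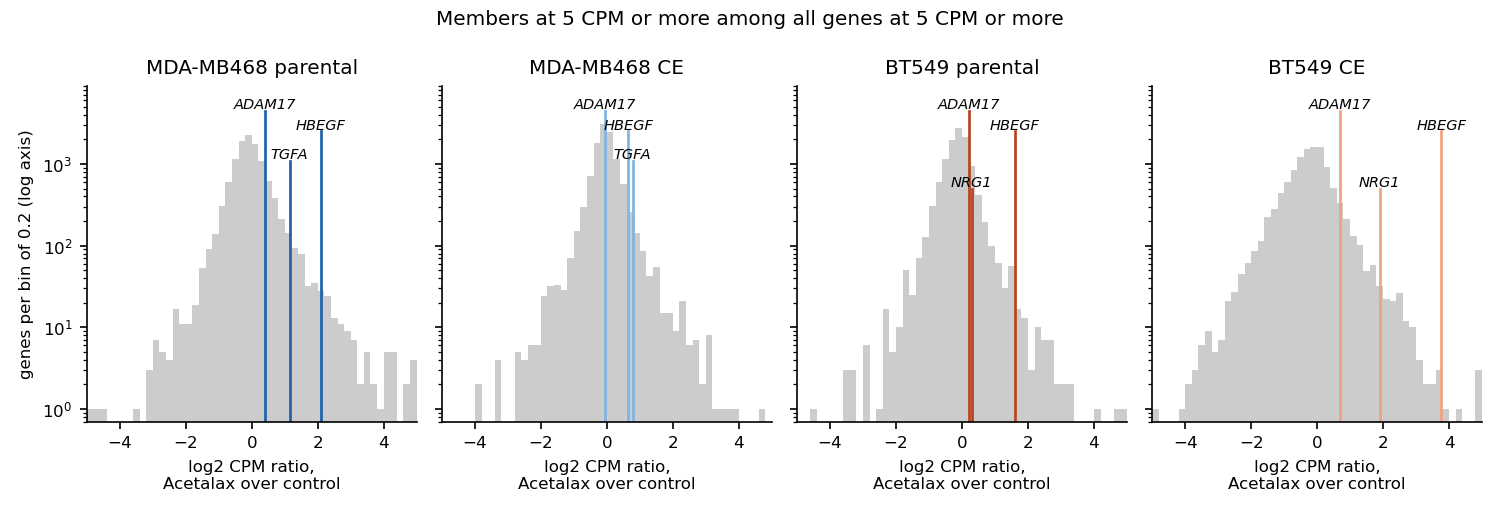
Log2 CPM ratio of Acetalax over control (x axis, genes beyond 5 drawn in the outermost bins) against the number of genes per bin of 0.2 (y axis, log scale) for the 11135 genes that averaged 5 CPM or more, one panel for each background. Colored lines mark HBEGF, TGFA, NRG1 and ADAM17 where they had more than 3 counts. HBEGF lies at the right edge of the genes in BT549 CE cells, at 3.76. In MDA-MB468 CE cells it lies less far to the right, at 0.65 (place 594 of 11135).

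EPGN, EREG, AREG and BTC lie in a row on chromosome 4, from 75174190 (start of EPGN) to 75719896 (end of BTC) in hg19. EPGN encodes epigen, EREG epiregulin, AREG amphiregulin and BTC betacellulin, and a second copy of the amphiregulin gene, AREGB, lies between AREG and BTC. The 150 bases before the RefSeq start of the 3 genes that were higher after Acetalax in MDA-MB468 cells are shown, with a cyclic AMP response element (CRE, letters TGACGTCA) in capitals. All are on the plus strand.
EPGN chr4:75174037-75174186: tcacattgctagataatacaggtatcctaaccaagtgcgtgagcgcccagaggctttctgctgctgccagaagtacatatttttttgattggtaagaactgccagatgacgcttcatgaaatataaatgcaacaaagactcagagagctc
EREG chr4:75230712-75230861: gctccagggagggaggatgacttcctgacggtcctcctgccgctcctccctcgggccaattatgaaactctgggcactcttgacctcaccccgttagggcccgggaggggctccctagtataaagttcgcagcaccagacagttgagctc
AREG chr4:75310703-75310852: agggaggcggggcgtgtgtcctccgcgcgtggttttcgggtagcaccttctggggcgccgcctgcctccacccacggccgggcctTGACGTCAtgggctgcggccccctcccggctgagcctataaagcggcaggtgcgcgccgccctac

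The motif search covered 5 motifs on both strands of the 250 bases before each start, namely AP-1 (TGANTCA), CRE (TGACGTCA), ETS (CCGGAAG), the CArG box and the NF-kB motif. Of 35116 RefSeq promoters, 6.57% held the AP-1 letters, 1.65% the CRE, 8.52% the ETS letters, 1.16% a CArG box and 5.21% an NF-kB motif. AREG held the CRE at positions -65 to -58, counted back from its start. No motif was found in the windows of EPGN, EREG and BTC. A match is a run of letters and not a measured binding site.

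In MDA-MB468 parental cells AREG had 5 counts in the control (0.103 CPM) and 214 after Acetalax (4.41 CPM), and in MDA-MB468 CE cells it had 18 counts (0.408 CPM) and 90 (1.89 CPM). EPGN had 10 counts in the parental control and 83 after Acetalax, and 51 and 192 in CE cells. EREG had 4 and 27 counts in parental cells and 16 and 72 in CE cells. For each of the 3 genes the treated library was above its own control in both MDA-MB468 backgrounds, and the CE control was above the parental control. BTC, which follows in the same row of genes, had 109 counts in the parental control and 99 after Acetalax, and 154 and 165 in CE cells, so that its pairs differed by less than counting error.

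AREG had the largest ratio of the 9 genes, at 5.29 (4.18 to 7.06) in MDA-MB468 parental cells, or 39-fold, and 2.18 (1.47 to 3.03) in MDA-MB468 CE cells, or 4.54-fold. The ratio of EPGN was 2.99 (2.10 to 4.17) and 1.79 (1.35 to 2.28), and that of EREG was 2.61 (1.24 to 4.73) and 2.03 (1.27 to 2.94). BTC had ratios of -0.14 (-0.54 to 0.27) and -0.01 (-0.33 to 0.32). The AREG ratio was lower in CE than in parental cells by a difference of -3.10 (-4.52 to -1.69) and the EPGN ratio by -1.20 (-2.22 to -0.17), whereas for EREG the difference was -0.58 with an interval that spans 0 (-2.22 to 1.05). All these genes had few counts. A range of 0.3 to 5 CPM was set to hold the 5 ligands with the fewest counted reads. For AREG that level is a lower bound (below). Of 5829 genes with a mean in this range, 9.11% were at least 2-fold higher after Acetalax in MDA-MB468 parental cells and 6.14% in MDA-MB468 CE cells. In each of these pairs 3 of the 5 were at least 2-fold higher. On the log2(FPKM + 1) scale, which shrinks ratios of low levels, only AREG in parental cells passed that line, at 1.79, beside 0.51 for EPGN and 0.11 for EREG, and in CE cells the values were 0.79, 0.72 and 0.25.

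In BT549 cells AREG had 0, 0, 1 and 2 counts in the parental control, parental Acetalax, CE control and CE Acetalax libraries, and BTC had 0, 1, 3 and 7 counts. EREG had 4, 8, 4 and 1 counts, and EPGN 17, 12, 6 and 9. No Acetalax pair of these genes in BT549 differed beyond counting error, and at this depth up to 3 counts could not be told from 0. Over the 4 pairs edgeR estimated 3.48 ± 0.70 for AREG, 1.54 ± 0.52 for EPGN, 1.72 ± 0.54 for EREG and 0.19 ± 0.32 for BTC. The AREG estimate rests on MDA-MB468 cells, whereas the MDA-MB468 ratios of BTC were at or below 0. For EPGN and EREG too, only the MDA-MB468 pairs were higher beyond counting error. Their BT549 ratios in parental and CE cells were -0.53 and 0.65 for EPGN and 0.88 and -1.48 for EREG.

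The level of AREG is a lower bound. Reads of 101 bases were sequenced, and 1010 of the 1042 windows of that length in its exons (96.9%) have a second exact match in hg19, between 75480629 and 75490481 on chromosome 4, where AREGB lies. The promoter stretch shown above is part of a 300-base stretch that is also found base for base 169776 bases downstream. STAR counts a read only where it has a unique place, so most reads of AREG could not be counted for either copy unless their mate lay in unique sequence. AREGB itself had at most 4 counts in any library. The ratio compares libraries treated alike, and with the counts of both copies summed it was 5.06 in MDA-MB468 parental cells and 2.25 in CE cells. No window of HBEGF, EREG, TGFA, EGF, BTC or NRG1 had such a second match.

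**Figure D3:**
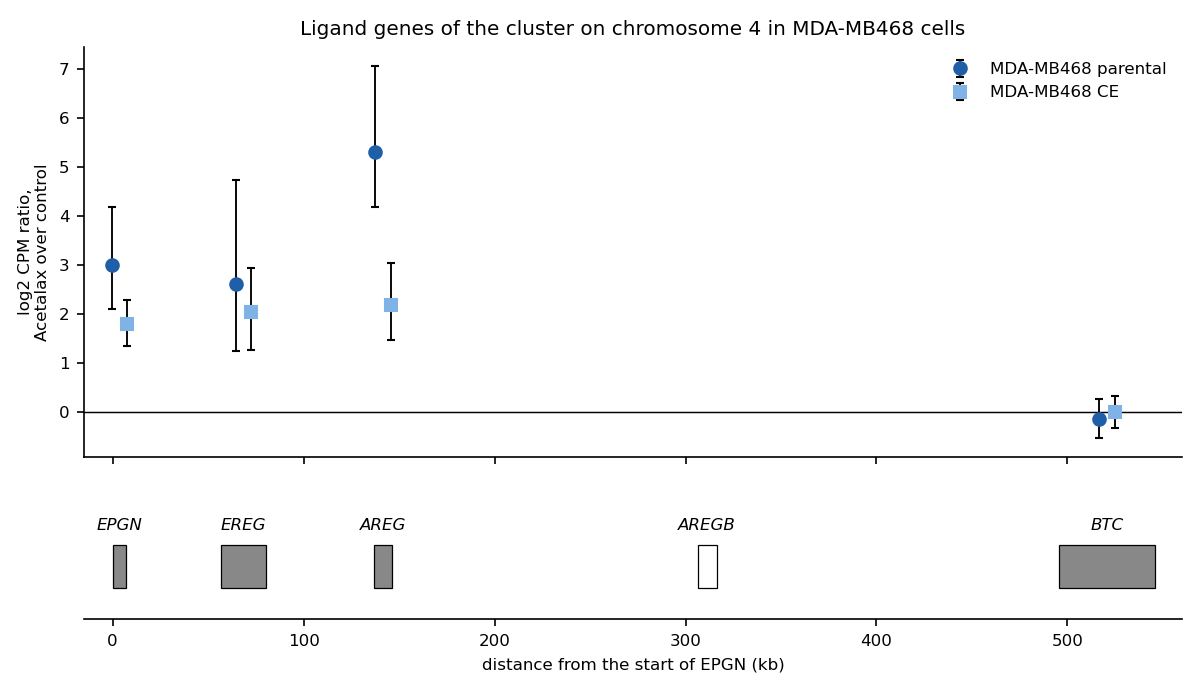
Log2 CPM ratio of Acetalax over control in MDA-MB468 cells (y axis, upper panel) for the 4 ligand genes of the cluster at their distance from the start of EPGN in kb (x axis), with circles for parental and squares for CE cells and bars for 95% counting intervals; the lower panel shows the extent of each gene, with the near-identical copy AREGB as an open box. EPGN, EREG and AREG lie between 1.79 and 5.29, and BTC lies at -0.14 and -0.01.

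EGF, the ligand that gave the family its name, is also on chromosome 4, from 110834040 to 110933422 on the plus strand, apart from the cluster. Its promoter is shown because it was the only promoter searched here with an AP-1 match, at positions -17 to -11 and in capitals, and because its RNA went the other way.
EGF chr4:110833889-110834038: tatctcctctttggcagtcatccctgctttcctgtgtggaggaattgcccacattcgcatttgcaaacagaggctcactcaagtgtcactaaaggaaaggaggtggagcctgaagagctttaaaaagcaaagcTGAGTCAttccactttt

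EGF was at 4.61 and 4.01 CPM in the control and treated MDA-MB468 parental cells, and at 9.04 and 4.04 CPM in the CE cells. The CE control thus stood above the other 3 MDA-MB468 libraries, which lay between 4.01 and 4.61 CPM. In BT549 it was at 0.876 and 0.529 CPM in parental cells and at 1.46 and 0.89 CPM in CE cells. No BT549 library reached the lowest MDA-MB468 library, and the CE control was again the highest of its line. Ranges without overlap, with MDA-MB468 higher, were found for 31.6% of the genes at 5 CPM or more. EGF averaged 3.18 CPM, and that share was not computed for genes between 0.3 and 5 CPM. The treated level was below the control in all 4 pairs, beyond counting error in CE cells, with log2 ratios of -1.16 (-1.42 to -0.91) in MDA-MB468 CE and -0.70 (-1.27 to -0.16) in BT549 CE cells. In parental cells the ratios were -0.20 (-0.48 to 0.09) and -0.72 (-1.55 to 0.06). The median ratio of the genes at 5 CPM or more was below 0 in each pair too, from -0.19 in BT549 CE to -0.05 in MDA-MB468 CE cells. The share of genes lower in all 4 pairs was not computed. In MDA-MB468 CE cells EGF was 2.24-fold lower after Acetalax, and 10.9% of the genes between 0.3 and 5 CPM were at least 2-fold lower there. The estimate over the 4 pairs was -0.61 ± 0.22.

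TGFA, transforming growth factor alpha, lies on chromosome 2 from 70674412 to 70781325 on the minus strand. In MDA-MB468 parental cells it was at 35 CPM in the control and 77.5 CPM after Acetalax, and in CE cells at 44.7 and 76.7 CPM. Both treated libraries reached about the same level from controls that differed. The log2 ratio was 1.15 (1.06 to 1.23) in parental and 0.78 (0.70 to 0.86) in CE cells, a difference of -0.37 (-0.48 to -0.25). In BT549 cells it had 1 count in the parental control and 0 counts in the other libraries, which allows up to 0.0553 to 0.071 CPM by a floor of 3 counts, and no ratio is given there. The ranges of the lines did not overlap for TGFA, with MDA-MB468 higher, as for 31.6% of the genes at 5 CPM or more. Its estimate of 0.99 ± 0.23 rests on MDA-MB468 cells. Of the 2 RefSeq start sites of TGFA, the one farther upstream had an NF-kB match at positions -219 to -210 and the other had no match. The genes nearest in their 4 ratios, MGLL (distance 0.52), OLR1 (0.68) and OXTR (0.81), were matched in part on BT549 ratios of TGFA that come from 1 count or fewer.

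NRG1, neuregulin 1, lies on chromosome 8 from 31496902 to 32622548 on the plus strand. It was the mirror image of TGFA, with 0, 0, 0 and 2 counts in the MDA-MB468 libraries. In BT549 it was at 153 CPM in the parental control and 188 CPM after Acetalax, and at 83.2 CPM in the CE control and 310 CPM in the treated CE cells. As for HBEGF, the lowest and the highest BT549 levels were the control and the treated library of the CE cells. The ratio was 0.29 (0.25 to 0.34) in parental cells and 1.90 (1.85 to 1.94) in CE cells, or 3.72-fold, and differed between them by 1.60 (1.53 to 1.67). Ranges that did not overlap, with BT549 higher, were found for 24.1% of the genes. The estimate of 1.23 ± 0.38 rests on BT549 cells. The genes nearest in their 4 ratios, TBX3 (distance 0.93), FST (1.25) and CCL22 (1.25), were matched in part on MDA-MB468 ratios of NRG1 that come from 2 counts or fewer. Reads were counted per gene, so that the many isoforms of NRG1 were not told apart.

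Among the 4 that averaged 5 CPM or more (HBEGF, TGFA, NRG1 and ADAM17), HBEGF and TGFA were at least 2-fold higher after Acetalax in MDA-MB468 parental cells, where 4.48% of such genes were. None of the 4 was in MDA-MB468 CE cells with more than 3 counts, where 2.43% were. HBEGF was in BT549 parental cells, where 1.92% were, and HBEGF and NRG1 were in BT549 CE cells, where 4.32% were. These shares describe all genes, and nothing is read from them about genes that were chosen on the same ratios.

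**Figure D4:**
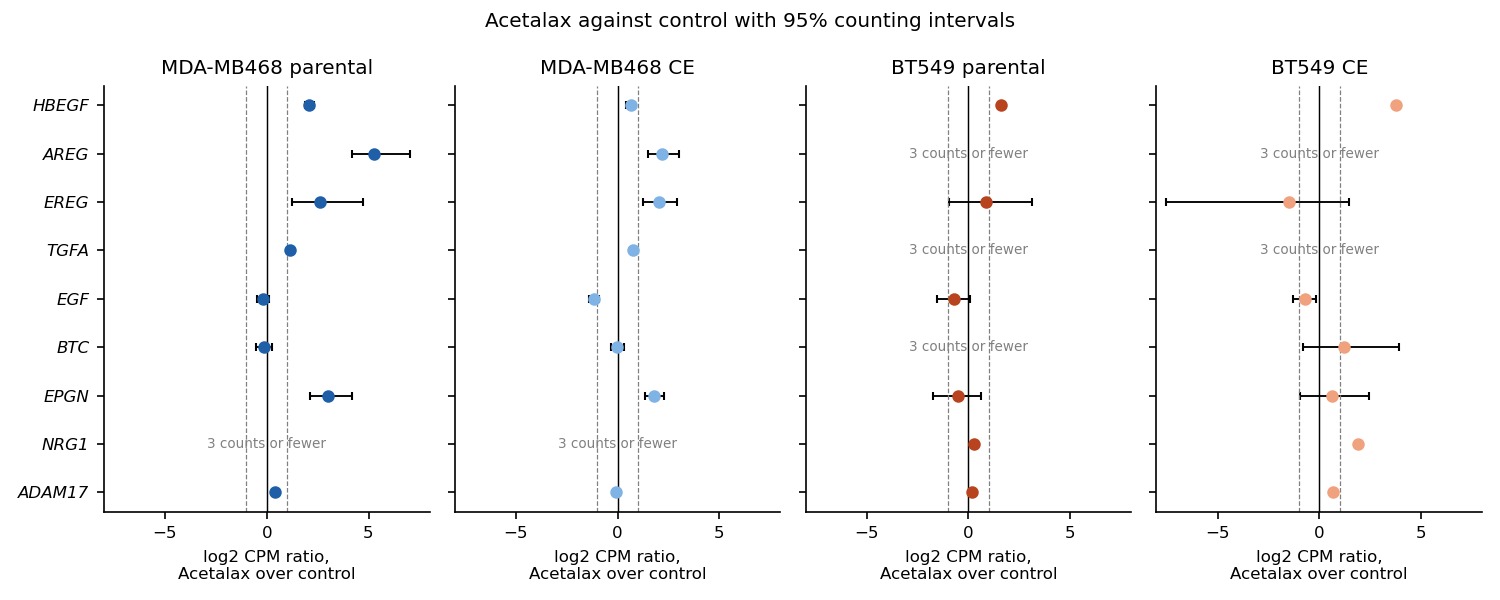
Log2 CPM ratio of Acetalax over control (x axis) for the 9 genes (y axis) in the 4 backgrounds; bars are 95% intervals for counting error, many of them smaller than the points, dashed lines mark a 2-fold difference, and pairs in which neither library had more than 3 counts are written out instead. HBEGF is to the right of 0 in each panel, EGF is to the left, and EPGN, EREG and AREG are to the right beyond counting error in MDA-MB468 cells.

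ADAM17, the sheddase, lies on chromosome 2 from 9628615 to 9695921 on the minus strand and had the most even level of the 9 genes. It was at 64.9 and 86.2 CPM in control and treated MDA-MB468 parental cells and at 71.5 and 68.7 CPM in the CE cells. In BT549 it was at 64 and 73.7 CPM in parental cells and at 64.1 and 103 CPM in CE cells, the highest level measured. The ratios were 0.41 (0.34 to 0.47), -0.06 (-0.13 to 0.01), 0.20 (0.13 to 0.28) and 0.68 (0.62 to 0.75) in the same order of backgrounds, and none reached 2-fold. As for HBEGF, the ratio was lower in CE than in parental cells of MDA-MB468, by a difference of -0.46 (-0.56 to -0.37), and higher in CE than in parental cells of BT549, by 0.48 (0.38 to 0.58). The estimate over the 4 pairs was 0.40 ± 0.14. Many genes had ratios like it, the nearest being RUFY3 at a distance of 0.09, ATXN7 at 0.12 and HSPA13 at 0.14. The promoter of ADAM17 held an ETS match at positions -27 to -21.

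Per length of exon, the ligands could be set against each other. These levels and shares count AREG at its lower bound, and the places and shares of the other ligands in MDA-MB468 hold for the counted reads. In the MDA-MB468 parental control TGFA was at 7.11 FPKM, HBEGF at 1.59, BTC at 0.845 and EGF at 0.604, and the other 4 ligands were each below 0.1 FPKM. TGFA held first place in all 4 MDA-MB468 libraries with 58.1 to 69.1% of the summed FPKM of the 8 ligands, and HBEGF held second place with 14.5 to 24.9%. AREG followed in the treated parental cells at 2.68 FPKM, or 9.89% of the sum, from 0.0626 FPKM in the control. In BT549 cells HBEGF led with 54.8 to 82.3% and NRG1 followed with 17.4 to 42.3%, and the other 6 together took only a few percent. The place of HBEGF before NRG1 in the BT549 CE control depended on the length used, since with the longest transcript of each gene in place of all merged exons NRG1 was at 6.65 FPKM and HBEGF at 6.39.

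With AREG at its lower bound, the summed FPKM of the 8 ligands was 10.3 in control and 27.1 in treated MDA-MB468 parental cells (2.64-fold) and 14.4 and 23.5 in CE cells (1.63-fold). Without AREG the sum was 10.2 and 24.4 in parental cells (2.39-fold) and 14.2 and 22.3 in CE cells (1.57-fold). In BT549 it was 19.2 and 44.7 in parental cells (2.32-fold) and 9.2 and 83.1 in CE cells (9.03-fold). The BT549 CE cells thus had the lowest sum of the line without the drug and the highest with it, and HBEGF accounted for most of the difference, at 5.04 FPKM and 68.3 FPKM. Fewer expressing cells and less RNA per cell cannot be told apart in such bulk libraries.

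**Figure D5:**
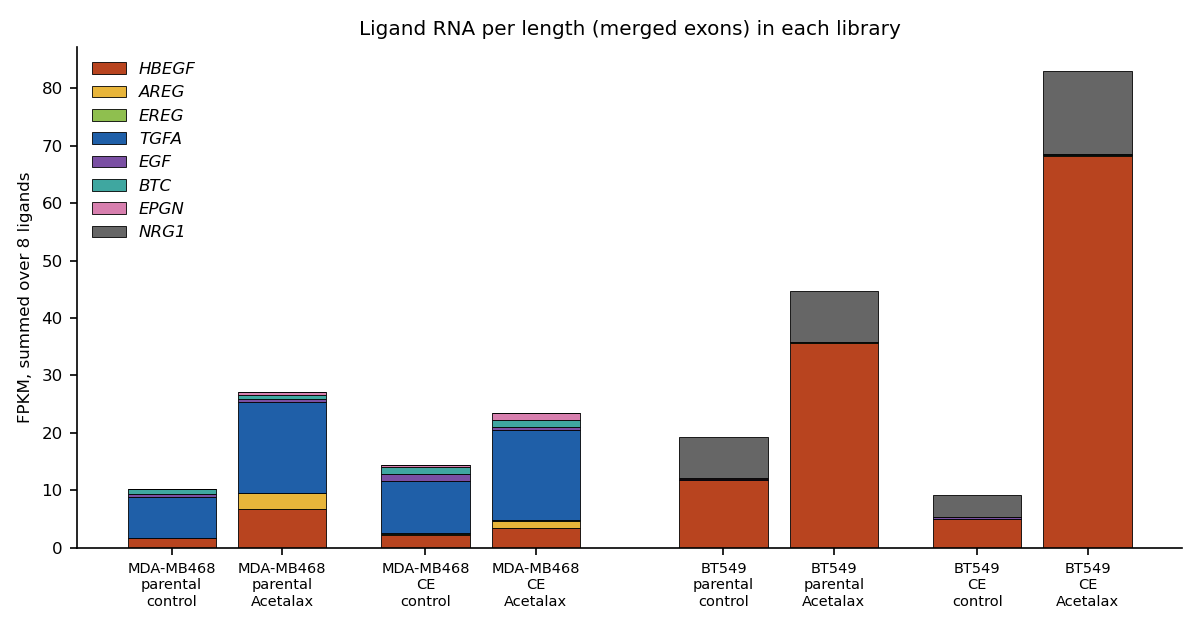
FPKM per merged exon length (y axis, from 0) stacked over the 8 ligands in each of the 8 libraries (x axis), 1 library per bar and no replicate error. TGFA makes up most of each MDA-MB468 bar and HBEGF with NRG1 nearly all of each BT549 bar, and the BT549 sum is lowest in the CE control at 9.2 and highest after Acetalax in the same cells at 83.1, while AREG in the MDA-MB468 bars is a lower bound.

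Without the drug, CE and parental cells differed in their ligands. HBEGF and EPGN went opposite ways in the lines, and EGF was higher in CE cells of both. These ratios use the same control libraries as the Acetalax pairs. In MDA-MB468 each of the 7 ligands with more than 3 counts was higher in the CE than in the parental control beyond counting error, as were 30.5% of the 16488 genes that averaged 0.3 CPM or more and had more than 3 counts in either control. The log2 ratio was 2.43 (1.50 to 3.63) for EPGN, 2.01 (0.51 to 4.18) for EREG, 1.89 (0.50 to 3.77) for AREG, 0.97 (0.73 to 1.21) for EGF, 0.64 (0.27 to 1.01) for BTC, 0.45 (0.20 to 0.71) for HBEGF and 0.35 (0.26 to 0.45) for TGFA. Of the 5 ligands between 0.3 and 5 CPM, 3 were at least 2-fold higher, as were 9.13% of all genes in that range.

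In BT549 HBEGF was lower in the CE than in the parental control by a log2 ratio of -1.23 (-1.35 to -1.10), or 2.34-fold, and NRG1 by -0.88 (-0.93 to -0.82). At least 2-fold lower there were 5.18% of the genes at 5 CPM or more. EPGN was lower by -1.79 (-3.49 to -0.45) on 6 against 17 counts, and 13.9% of the genes between 0.3 and 5 CPM were at least 2-fold lower. EGF was higher, at 0.72 (0.15 to 1.34), as in MDA-MB468. ADAM17 differed little, at 0.14 (0.07 to 0.21) in MDA-MB468 and 0.00 (-0.07 to 0.07) in BT549.

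The genes around the ligands were read from 6 lists by role, with 60 of 62 genes tested by edgeR over the 4 pairs. The lists were chosen with earlier results of these data known. Their calls and medians are thus no independent test of the pathway. Of all genes tested, 2.72% were called higher and 2.27% lower after Acetalax at an adjusted p of 0.05, and of the 60 pathway genes 6 were called. Among the receptors, 3 of 4 were tested and the median log2 fold change was -0.40. EGFR, the receptor of most of these ligands, rose by a log2 fold change of 1.01 ± 0.17 (edgeR adjusted p = 0.0367), and ERBB2, the partner that binds no ligand of its own, fell (-0.70 ± 0.11, adjusted p = 0.0361). EGFR was at 3748 CPM in the MDA-MB468 parental control and 10474 CPM after Acetalax, 3285 and 6946 CPM in MDA-MB468 CE cells, 314 and 379 CPM in BT549 parental cells, and 250 and 440 CPM in BT549 CE cells. It was higher in the treated library of each pair, and all MDA-MB468 libraries were far above all BT549 libraries. Of the genes at 5 CPM or more, 12.8% were higher in all 4 pairs. In 31.6% of them MDA-MB468 was higher with no overlap of the lines. ERBB2 was lower in the treated library of each pair, with log2 ratios of -0.98 and -0.90 in MDA-MB468 parental and CE cells and -0.52 and -0.74 in BT549 parental and CE cells.

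Of the other ligands, 2 of 3 were tested and NRG2 fell (-1.82 ± 0.38, edgeR adjusted p = 0.0431), from a level of 1.09 CPM or less, and the median was -1.08. None of 11 further sheddases, partners and inhibitors was called, with a median of 0.17, among them ADAM10, the sheddase of EGF and BTC, at -0.07 ± 0.09, and RHBDF2, which carries ADAM17 to the surface, at 0.56 ± 0.18. None of 17 signal transducers was called either, with a median of 0.08.

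The inhibitors and targets of the pathway had higher medians. Of 15 inhibitors of the receptors and of the MAPK cascade, with a median of 0.32, SPRY2, a feedback inhibitor of receptor tyrosine kinase signaling, rose (1.29 ± 0.23, edgeR adjusted p = 0.0379), and LRIG1, which promotes degradation of EGFR, fell (-1.0 ± 0.23, adjusted p = 0.0492). Of 12 transcriptional targets, with a median of 0.71 beside -0.04 over all genes, MYC, a transcription factor that drives growth, rose (0.79 ± 0.12, adjusted p = 0.0323). The targets did not move as one. Of the 10 at 5 CPM or more, 3 were at least 2-fold higher after Acetalax in each MDA-MB468 pair. In BT549, 2 were in parental and 4 in CE cells. The shares of all genes at 5 CPM or more were 4.48% and 2.43% in MDA-MB468 parental and CE cells. They were 1.92% and 4.32% in BT549 parental and CE cells. FOS, an AP-1 subunit, was lower in MDA-MB468 cells, with log2 ratios of -2.36 in parental and -1.32 in CE cells. In BT549 parental and CE cells the FOS ratios were 0.47 and -0.38. FOSL1, another AP-1 subunit, was at 3.06 ± 0.77 (adjusted p = 0.0595) and missed the threshold. With 1 library per condition, these p-values rest on the spread between the 4 pairs, of which the CE cells were derived from the parental cells of the same line. Without the MDA-MB468 parental pair none of the 6 genes was called, and without the BT549 CE or the MDA-MB468 CE pair 2 pathway genes were called.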

How the data were processed

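RNA-seq of 8 libraries, 1 per condition, was analyzed. The authors aligned reads of 101 bases to hg19 with STAR (2.7.11b in the submitters' processing notes) and deposited raw counts per gene from its GeneCounts option, with no normalization. The annotation and the strand column are not given in the sources used here. The table held 58154 rows for 55679 identifiers, and repeats (1392 identifiers, 3 with differing counts) were kept once. From the deposited counts, CPM, FPKM (merged exons of a GENCODE annotation lifted to hg19, 55663 identifiers matched) and log2 CPM ratios (0.5 added to each count) were computed, with exact binomial intervals for ratios, a normal approximation for differences of ratios, and Wilson intervals for levels, all at 95%. The members and lists were chosen with earlier results of these data known. Named besides the members are the 3 genes nearest in their 4 ratios to each member at 5 CPM or more, the called pathway genes with the largest rise and fall, and the markers. ADAM10, RHBDF2, FOS and FOSL1 were chosen after their values were seen.

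All 8 libraries were fitted with edgeR 4.0.16 (R 4.3.3, quasi-likelihood, TMM, filterByExpr, Benjamini-Hochberg, threshold 0.05) with 4 background intercepts and 1 Acetalax term, leaving 3 residual degrees of freedom. Pairing came from the shared background, not from replicate numbers. No library was a copy of another (smallest chi-square per degree of freedom 44.4). DESeq2 1.42.0, other scalings, filters and added values, and leaving out pairs were alternatives. Promoters came from RefSeq (GRCh38.p14), 250 bases before to 50 after the start, and all 8 members looked up matched, with coordinates re-found by exact match in hg19. No promoter of NRG1 was used.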

Additional observations from a re-analysis of the deposited data

Results flagged for a closer look

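HBEGF and EPGN differed between the lines in the contrast of CE with parental controls. The log2 ratio of HBEGF was 0.45 in MDA-MB468 and -1.23 in BT549, and that of EPGN was 2.43 in MDA-MB468 and -1.79 in BT549. EPGN had 51 against 10 counts in MDA-MB468 and 6 against 17 in BT549. As log2(FPKM + 1) its ratios were 0.35 and -0.12. With 1 library per condition that contrast of the lines was not tested.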

How the results depend on the processing

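Of 19693 genes, edgeR called 984 over the 4 pairs. The count was 3585 with no filter on low counts and 2930 with DESeq2, and 0 with no replicate block (3804 at an unadjusted p under 0.05) and with separate terms for parental cells (0; 1710 unadjusted) and for CE cells (0; 2311 unadjusted). Leaving out 1 pair gave 0 to 554 calls: 0 without the MDA-MB468 parental pair (3491 unadjusted), 263 without BT549 CE, 311 without BT549 parental and 554 without MDA-MB468 CE. The 6 pathway calls became 27 with no filter, 16 with DESeq2, 0 with no replicate block and with either separate term, and 0 to 9 when a pair was left out. The cause was not tested.

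The ratio of HBEGF in BT549 CE cells (3.76) was 3.92 by TMM and 3.96 by DESeq2's size factors, and 3.52 as log2(FPKM + 1), which also gave 1.58 in MDA-MB468 parental cells and -1.08 for CE against parental BT549 controls. The median ratio of all genes in BT549 CE cells moved from -0.19 by total counts to -0.03 by TMM. Genes at least 2-fold apart after Acetalax numbered 861, 486, 534 and 1822 in MDA-MB468 parental, MDA-MB468 CE, BT549 parental and BT549 CE cells. In the same order they numbered 373, 161, 92 and 660 as log2(FPKM + 1), and 1444, 871, 976 and 2750 at a mean of at least 1 CPM. As log2(CPM + 1) they were 290 in MDA-MB468 CE and 194 in BT549 parental cells. For CE against parental controls they were 458 in MDA-MB468 and 1432 in BT549. In MDA-MB468 they became 124 as log2(FPKM + 1), 249 as log2(CPM + 1) and 859 at 1 CPM. In BT549 they became 669 and 2241 by the first and last of these. With the longest transcript, 7 of 8 libraries kept their leading ligand. Of 43 ratios of the 9 genes, 175 recomputed values kept within the counting interval in 132 cases, crossed the 2-fold line in 21, all under an added 1, and changed sign in 4, all for ADAM17 or BTC near 0 in MDA-MB468 CE cells. Summing AREG with AREGB, and the sums without AREG, were added after seeing the data. At 1 library per condition, low counts limit AREG, EREG, EPGN and BTC, and the AREG counts also leave out reads that match AREGB equally.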
